A study of Mus musculus with 41 samples.

Results

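The promoter of the mouse Il4 gene was followed through its 4 CpGs on the strand that the bisulfite primers amplify. They were taken by position, as every CpG on the minus strand of chr11:53432389-53432583 (mm9), and make up 4 of the 64 CpGs read at the Il4 locus. The amplicon was read in all 35 samples of naïve CD4 T cells and Th2 cells of the series, which come from 31 libraries. Of these samples 27 were made by bisulfite sequencing (BS-seq), 6 by pyridine borane sequencing (PB-seq) and 2 by TET-assisted pyridine borane sequencing (TAPS).

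Interleukin 4 is the signature cytokine of T helper type 2 cells, and its locus is silent in naïve CD4 T cells and opens while they differentiate. TET dioxygenases oxidise 5-methylcytosine (5mC) to 5-hydroxymethylcytosine (5hmC) and on to 5-formylcytosine (5fC) and 5-carboxylcytosine (5caC). The last pair of bases can be excised by the glycosylase TDG or lost when DNA is copied, and GATA3 is the lineage-defining transcription factor of Th2 cells.

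All cells came from C57BL/6 mice, from spleen and lymph nodes, of a common age range per the study's methods, and the labels do not name the animals behind a library. Naïve cells were wild type, sorted as CD25-negative, CD62L-high and CD44-low, and had 3 BS-seq libraries. Th2 cells were grown from such cells on plate-bound antibodies to CD3 and CD28 with IL-4 and an antibody to IFN-γ, then expanded in IL-2, for 1 cycle or 2. A wild-type set grown for a single cycle had 3 libraries. TET iTKO cells carried floxed alleles of Tet1, Tet2 and Tet3, and TDG iKO cells floxed Tdg. In both lines the deletion was made in the living mouse by tamoxifen through a ubiquitously expressed CreERT2, and per the study's methods the control mice received tamoxifen too. The deletion was therefore present before differentiation began and was not limited to T cells, and cells were sorted for a fluorescent reporter of Cre activity. WT and deleted cells of each line had 2 BS-seq libraries per cycle. For the TDG line after the first cycle 3 samples per genotype were listed, of which a pair carries the name of a single library, so the pair was counted as 1 library. A further PB-seq pair came from mice in which the Cd4 promoter drove Cre, which deletes Tdg during T cell development. Cells with Gata3 sgRNA were Cas9-expressing T cells infected with a retrovirus, with 1 mock library and 1 library for each of 2 sgRNA samples. They were sorted for fluorescent reporters, and the labels do not give the share of edited alleles. All PB-seq samples, the Th2 cells read by TAPS and the cells of the Gata3 set were from the first cycle. The naïve cells were not from the TET or TDG line, so a comparison of these lines with naïve cells also compares mice.

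On mm9 the amplicon lay 218 to 412 bases upstream of the annotated start of the full-length Il4 transcript, which runs on the minus strand of chromosome 11 from 53432171 down to 53425962. It overlapped 0 annotated genes, so it is neither exonic nor intronic. Its 195 bases are shown because all levels below refer to them. They are written 5′ to 3′ on the minus strand, with the 4 CpGs in capitals.
Il4 promoter amplicon: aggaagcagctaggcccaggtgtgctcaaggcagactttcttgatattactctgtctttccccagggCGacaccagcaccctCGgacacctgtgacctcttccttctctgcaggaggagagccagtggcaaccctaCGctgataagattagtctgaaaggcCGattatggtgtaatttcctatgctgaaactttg
Numbered along the locus in the direction of transcription, the CpGs are CpG18 at 53432516, CpG19 at 53432501, CpG20 at 53432447 and CpG21 at 53432422, which are 345, 330, 276 and 251 bases upstream of the start. CpG18 and CpG19 are 15 bases apart, CpG19 and CpG20 are 54 apart, and CpG20 and CpG21 are 25 apart. The next CpG downstream, CpG22 in exon 1, lies 289 bases from CpG21.

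The letters GATA, searched on both strands, occurred 2 times, at 53432538-53432541 and at 53432440-53432443, the latter 4 bases from the cytosine of CpG20. In windows of the same 195 bases from 32851 RefSeq promoters (GRCm38.p6), 47.6% held GATA. The letters GGAAA, the core of NFAT-type motifs, occurred 2 times, the nearer one 7 bases from the cytosine of CpG18, and 47.8% of the windows held them. The STAT6-type TTCNNNNGAA, the AP-1-type TGANTCA and the CACGTG form of the E-box were not among these letters. Of the windows, 4.66%, 5.37% and 4.17% held them. Other forms of the E-box were not searched. The median window held 4 CpGs, as the amplicon does.

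In BS-seq 5mC and 5hmC are read as C and all other forms of cytosine as T, so the level is the percentage of reads with C. In naïve cells CpG18 was at 62.5%, 60.7% and 60.6% in the 3 libraries (61.2% ± 1.08, SD, n = 3). CpG19 was at 48.7%, 61.5% and 55.0% (55.1% ± 6.41, SD, n = 3). CpG20 was at 47.7%, 56.0% and 50.8% (51.5% ± 4.22, SD, n = 3). CpG21 was the lowest in every naïve library, at 29.7%, 27.5% and 34.1% (30.4% ± 3.35, SD, n = 3). The promoter was thus partly methylated before differentiation, whereas the means of CNS1, an upstream enhancer, and of exon 3 were 92.7% ± 0.55 (SD, n = 3) and 95.9% ± 0.348 (SD, n = 3) there. Another enhancer, CNS2, was lower than the promoter, at 13.2% ± 0.483 (SD, n = 3). Naïve replicate 2 had only 109 to 117 reads at the promoter CpGs, against 1267 to 1708 in the other 2 libraries. Its 95% Wilson interval at CpG19 ran from 52.5% to 69.9%, and those of replicates 1 and 3 from 46.3% to 51.1% and from 52.4% to 57.5%. These intervals hold only the error of counting reads, since the PCR products carried no molecular identifiers and copies of a molecule cannot be told apart. Cytosines outside CpGs in the amplicon, a measure of unconverted DNA, were read as C in 0.140% to 0.354% of reads over the 27 BS-seq samples.

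The first question is how the promoter changes when naïve cells become Th2 cells. After the first cycle CpG19 was at 23.9%, 26.2% and 39.8% (30.0% ± 8.65, SD, n = 3), and CpG21 at 16.2%, 16.4% and 30.5% (21% ± 8.22, SD, n = 3). CpG18 was at 43.8%, 49.6% and 62.9% (52.1% ± 9.8, SD, n = 3). CpG20 was at 45.5%, 45.9% and 57.1% (49.5% ± 6.58, SD, n = 3). Th2 replicate 3 was the highest of the 3 at every promoter CpG. Only CpG19 had all 3 libraries of this Th2 set below all naïve libraries, and the groups overlapped at the other 3. CpG19 fell by 25.1 points (± 10.8, combined SD; adjusted p = 8.25e-05) and CpG21 fell by 9.41 points (± 8.88; adjusted p = 0.0324). CpG18 differed by -9.16 points (± 9.86; adjusted p = 0.0568) and CpG20 by -2.01 points (± 7.81; adjusted p = 0.896). So 2 of the 4 CpGs were called lower, beside 60.7% of the 56 CpGs tested, which as in all comparisons with naïve cells include none of exon 1, and the median difference was -9.28 points at the promoter and -9.00 points over the 56. P-values measure spread between libraries, taken from all groups in the fit, which may be technical since the labels name no separate animals. The call at CpG21 depended on single libraries: its adjusted p was 0.0568 without naïve replicate 1, 0.143 without naïve replicate 3, 0.134 without Th2 replicate 1 and 0.134 without Th2 replicate 2. It was 0.118 when only the 6 compared libraries were fitted, so this call also depended on the spread of other groups. Without Th2 replicate 3 CpG18 was called as well, at a difference of -14.6 points (adjusted p = 0.00143), and CpG21 differed by -14.2 points. Without Th2 replicate 1 the difference at CpG18 was -5.02 points and was not called. CpG18 was also called when runs in the fit were counted as separate replicates (adjusted p = 0.0437).

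WT cells from both floxed lines give the course over the cycles. After the first cycle CpG18 was at 36.8% and 37.6% in WT cells of the TET line and at 47.5% and 44.3% in those of the TDG line. CpG19 was at 15.6% and 18.9%, and at 24.2% and 25%. CpG20 was at 29.7% and 37.4%, and at 44.3% and 43.7%, and CpG21 at 12.6% and 17.5%, and at 24.6% and 22.2%. At all 4 CpGs the WT libraries of the TET line were below those of the TDG line after the first cycle, a difference between lines that was not tested. After the second cycle the 4 WT libraries lay between 33.2% and 38.2% at CpG18 (34.9% ± 2.33, SD, n = 4) and between 15.5% and 19.3% at CpG19 (16.9% ± 1.65, SD, n = 4). They lay between 29.3% and 37.0% at CpG20 (32.8% ± 3.16, SD, n = 4) and between 7.96% and 12.4% at CpG21 (10.7% ± 1.95, SD, n = 4). Every one of these libraries was below every naïve library at each of the 4 CpGs. Against naïve cells CpG19 fell by 38.2 points (± 6.62; adjusted p = 1.38e-08), CpG18 fell by 26.4 points (± 2.57; adjusted p = 3.15e-06), CpG21 fell by 19.8 points (± 3.87; adjusted p = 9.64e-06) and CpG20 fell by 18.8 points (± 5.27; adjusted p = 0.000224). All 4 were called lower, beside 75.0% of the 56 CpGs tested, with a median difference of -23.1 points at the promoter and -35.3 points over all 56.

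Between the cycles 1 of the 4 promoter CpGs was called. CpG21 fell by 8.57 points (± 5.68; adjusted p = 0.00835), and its 4 second-cycle libraries all lay below its 4 libraries of the first cycle. CpG18, CpG20 and CpG19 differed by -6.68 points (± 5.7; adjusted p = 0.106), -6.01 points (± 7.49; adjusted p = 0.135) and -4.06 points (± 4.76; adjusted p = 0.232). Thus 1 of 4 was called lower, beside 82.6% of the 46 CpGs tested, which include none of the enhancer CNS2. The median difference was -6.34 points at the promoter and -28.4 points over the 46, and the promoter was not tested against the other CpGs. At all 4 CpGs the mean fell less in the TET line than in the TDG line, which was not tested. TET line WT means went from 37.2% to 35.7% at CpG18, 17.2% to 15.9% at CpG19 and 33.6% to 33.2% at CpG20. TDG line WT means went from 45.9% to 34.05%, 24.6% to 17.8% and 43.97% to 32.4% in the same order. At CpG21 the TET line went from 15.1% to 9.28% and the TDG line from 23.4% to 12.05%. The call at CpG21 was lost without TET WT replicate 2 of the first cycle (adjusted p = 0.0613). CpG22, the nearest CpG of exon 1, went from 85.4% ± 5.35 (SD, n = 4) to 70.2% ± 2.91 (SD, n = 4) over the same cycles and was called lower (adjusted p = 0.000608).

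Loss of the TET enzymes was compared with WT cells of the same line. After the first cycle TET iTKO cells were at 71.6% and 75.4% at CpG18, at 52.5% and 56.7% at CpG19, at 59.0% and 62.4% at CpG20 and at 32.7% and 35.5% at CpG21. After the second they were at 78.7% and 85.7% at CpG18, at 65.1% and 70.1% at CpG19, at 70.3% and 76.6% at CpG20 and at 31.4% and 41.3% at CpG21. Second-cycle WT cells of the line were at 38.2% and 33.3%, 16.3% and 15.5%, 37.0% and 29.3%, and 7.96% and 10.6% at the same CpGs. Both TET iTKO libraries were above both WT libraries at each CpG and in each cycle. After the first cycle the differences were 36.3 points at CpG18 (± 2.75; adjusted p = 4.21e-06), 37.4 points at CpG19 (± 3.76; adjusted p = 2.21e-06), 27.1 points at CpG20 (± 5.97; adjusted p = 0.000126) and 19.0 points at CpG21 (± 4.01; adjusted p = 0.000977). All 4 were called higher, beside 60.0% of the 60 CpGs tested, with a median difference of 31.7 points at the promoter and 12.5 points over the 60. After the second cycle they were 46.5 points at CpG18 (± 6.02; adjusted p = 8.79e-08), 51.7 points at CpG19 (± 3.61; adjusted p = 2.52e-08), 40.3 points at CpG20 (± 7; adjusted p = 6.71e-07) and 27.1 points at CpG21 (± 7.3; adjusted p = 1.12e-05). Again all 4 were called higher, beside 70.0% of the 60, with a median of 43.4 points at the promoter and 26.2 points over the 60. In a fit of the compared groups with a block for the replicate number, 0 of the 60 were called after the first cycle. Adjusted p at the promoter CpGs was then 0.0684 to 0.128. The same fit without the block called all 4.

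The difference between TET iTKO and WT cells was larger in the second cycle than in the first, by 10.2 points at CpG18, 14.3 points at CpG19, 13.1 points at CpG20 and 8.03 points at CpG21. None of the 4 passed the test of this change, beside 0.00% of the 60 CpGs of the locus, with adjusted p from 0.194 to 0.282. With the quasi-binomial test 0 of the 4 had an unadjusted p under 0.05, and limma also called 0.

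TET iTKO cells were also set against themselves and against naïve cells. From the first to the second cycle their level was higher by 13 points at CpG19 (± 4.66; adjusted p = 0.11), by 12.7 points at CpG20 (± 5.04; adjusted p = 0.11), by 8.67 points at CpG18 (± 5.61; adjusted p = 0.248) and by 2.25 points at CpG21 (± 7.32; adjusted p = 0.98). Both second-cycle libraries were above both first-cycle libraries at CpG18, CpG19 and CpG20 and overlapped at CpG21. None of the 4 was called higher, beside 0.00% of the 60, where 11.7% were called lower. With the quasi-binomial test 2 of the 4 had an unadjusted p under 0.05, and limma called 0, with 3 at an unadjusted p under 0.05. The median difference was 10.7 points at the promoter and -1.32 points over the 60. CNS1 and exon 3, at means of 90.5% and 95.7% in first-cycle TET iTKO cells, had little room for a rise. Against naïve cells, TET iTKO cells after the first cycle differed by 12.3 points at CpG18 (adjusted p = 0.0904), -0.457 points at CpG19 (adjusted p = 0.981), 9.16 points at CpG20 (adjusted p = 0.203) and 3.65 points at CpG21 (adjusted p = 0.776). The quasi-binomial test called 0 of the 4 higher, beside 0.00% of 54 CpGs called higher and 9.26% called lower, with 2 at an unadjusted p under 0.05, and limma called 0, with 1 at an unadjusted p under 0.05. Both TET iTKO libraries were above all naïve libraries at CpG18 and CpG20, and these CpGs were called higher when only the compared groups were fitted (adjusted p = 0.00482 and 0.0219).

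In the second cycle TET iTKO cells were above naïve cells by 20.9 points at CpG18 (± 5.04; adjusted p = 0.00049), by 12.6 points at CpG19 (± 7.34; adjusted p = 0.0268) and by 21.9 points at CpG20 (± 6.13; adjusted p = 0.00049). CpG21 differed by 5.9 points (± 7.81; adjusted p = 0.411). All libraries of the TET iTKO cells lay above all naïve libraries at the first 3 of these CpGs and overlapped them at CpG21. Thus 3 of 4 were called higher, beside 5.56% of the 54 CpGs tested, and these 3 were the only CpGs of the 54 called higher, while 10 others (18.5%) were called lower. Most other regions could not rise as much. Naïve means were 92.7% in CNS1, 93.8% in intron 1 and exon 2, 90.7% in the HSII 3′ region and 95.9% in exon 3. CNS2, at 13.2%, had room for a rise, and 0 of its 14 CpGs tested were called higher. The median difference was 16.8 points at the promoter and -1.34 points over the 54. All 3 calls were lost when the compared groups alone were fitted with a block for the replicate number. Adjusted p was then 0.262 at CpG18, 0.345 at CpG19 and 0.228 at CpG20, and 0 of the 54 were called. The call at CpG19 was lost without naïve replicate 1 (adjusted p = 0.165), without naïve replicate 3 (adjusted p = 0.0595), without TET iTKO replicate 2 (adjusted p = 0.24) and with limma (adjusted p = 0.0801).

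TDG iKO cells were compared with WT cells of their line in both cycles. After the first cycle they were at 40.4% and 39.9% at CpG18, at 22.9% and 21.6% at CpG19, at 37.2% and 37.5% at CpG20 and at 26.7% and 20.5% at CpG21. After the second cycle they were at 37.7% and 41.4%, 18.3% and 24.8%, 31.6% and 33.9%, and 14.2% and 16.8% in the same order. WT cells of the line after the second cycle were at 34.9% and 33.2%, 19.3% and 16.4%, 32.2% and 32.5%, and 12.4% and 11.7%. After the first cycle TDG iKO libraries lay below WT libraries at CpG18, CpG19 and CpG20, and after the second above them at CpG18 and CpG21, with overlap elsewhere. The differences from WT ranged from -6.61 to 0.172 points after the first cycle and from 0.376 to 5.53 points after the second. At CpG19 the odds ratio was 0.87 (95% interval 0.51 to 1.49) after the first cycle and 1.28 (0.754 to 2.16) after the second. At CpG18 it was 0.792 (0.501 to 1.25) and 1.27 (0.824 to 1.96). The quasi-binomial test called 0 of the 4 in either cycle, beside 0.00% of 46 and 0.00% of 63 CpGs, with 0 at an unadjusted p under 0.05, and limma also called 0. Against naïve cells TDG iKO cells of the second cycle fell by 33.5 points at CpG19 (± 7.89; adjusted p = 1.53e-06), 21.7 points at CpG18 (± 2.84; adjusted p = 0.000215), 18.8 points at CpG20 (± 4.53; adjusted p = 0.00115) and 14.9 points at CpG21 (± 3.83; adjusted p = 0.00173). All 4 were called lower, beside 73.2% of the 56 CpGs tested. Fitted to the compared groups with a block for the replicate number, only CpG19 was called, beside 35 of the 56. Adjusted p was then 0.0530 at CpG18, 0.0735 at CpG20 and 0.0812 at CpG21. Between the cycles, TDG iKO cells differed by -0.584 points at CpG18, -0.635 points at CpG19, -4.64 points at CpG20 and -8.08 points at CpG21. The quasi-binomial test called 0 of these 4, beside 80.4% of 46 CpGs, with 0 at an unadjusted p under 0.05, and limma called 0. The fit with the block called CpG21 (adjusted p = 0.0301), beside 38 of the 46. The median was -2.64 points at the promoter and -31.5 points over the 46.

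The effect of TET deletion exceeded that of TDG deletion at all 4 promoter CpGs in both cycles. The difference of the effects after the first cycle was 42.1 points at CpG18 (adjusted p = 7.94e-05), 39.8 points at CpG19 (adjusted p = 0.000135), 33.7 points at CpG20 (adjusted p = 0.000724) and 18.9 points at CpG21 (adjusted p = 0.0158), beside 63.0% of 46 CpGs called. After the second cycle it was 40.9 points at CpG18 (adjusted p = 3.51e-05), 48.0 points at CpG19 (adjusted p = 3.18e-05), 39.9 points at CpG20 (adjusted p = 7.96e-05) and 23.6 points at CpG21 (adjusted p = 0.00574), beside 63.3% of 60 CpGs called. The call at CpG21 after the first cycle was lost without TDG WT replicate 1 (adjusted p = 0.0532), TET WT replicate 1 (adjusted p = 0.0731) or TDG iKO replicate 2 (adjusted p = 0.07).

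The order of the CpGs differed between naïve and Th2 cells. CpG19 was above CpG20 in 3 of 3 naïve libraries, by 1.04, 5.5 and 4.11 points. CpG20 was above CpG19 in all 22 Th2 libraries, by 5.16 to 21.6 points. The 4 TET iTKO libraries had this order too, with CpG20 above CpG19 by 5.16 to 6.51 points. CpG18 was the highest of the 4 in 21 of the 22 Th2 libraries and CpG21 the lowest in 20. This order was noticed in the values and was not tested.

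Gata3 was targeted by sgRNA in Cas9-expressing cells, read in 2 samples named sgGATA3-1 and sgGATA3-2. At CpG18 the mock library was at 43.6%, sgGATA3-1 at 60.4% and sgGATA3-2 at 55.5%. At CpG19 these libraries were at 19.0%, 33.3% and 31.1%. At CpG20 they were at 38.1%, 48.6% and 43.7%, and at CpG21 at 17.6%, 24.1% and 22.1%. Both sgRNA libraries were above the mock library at each CpG, and sgGATA3-1 was above sgGATA3-2. The mean difference was 14.4 points at CpG18, 13.2 points at CpG19, 8.04 points at CpG20 and 5.47 points at CpG21. The spread between mock libraries could not be measured, and any test here rests on the spread of the other groups. On that assumption the quasi-binomial test called 0 of the 4 higher, beside 21.9% of the 64 CpGs tested. Of the 4, 2 had an unadjusted p under 0.05, and limma called 0, with 1 at an unadjusted p under 0.05. The median difference was 10.6 points at the promoter and 8.47 points over the 64.

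PB-seq reads 5fC and 5caC as T, and its level is 100 × T/(T + 0.5 × C), the formula of the study. With CreERT2 the labels list 2 replicates per genotype, but the file names of both give the same library. They were taken as 2 runs of it, and no test was made. TDG iKO cells were at 1.33% and 1.40% in the 2 runs at CpG18, at 2.76% and 2.71% at CpG19, at 3.03% and 3.01% at CpG20 and at 1.82% and 1.47% at CpG21. WT cells were at 0.619% and 0.618% at CpG18, at 0.670% and 0.618% at CpG19, at 0.953% and 0.750% at CpG20 and at 0.827% and 0.911% at CpG21. Every run of TDG iKO cells was above every run of WT cells, and the mean differences were 0.744 points at CpG18, 2.09 points at CpG19, 2.17 points at CpG20 and 0.775 points at CpG21. By a difference of at least 1 point, 2 of 4 stood higher, beside 34.0% of the 47 CpGs covered. Cytosines outside CpGs in the amplicon averaged 0.272% in TDG iKO and 0.277% in WT cells over the runs.

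With Cre driven by the Cd4 promoter, Tdg-deleted cells were at 2.91% at CpG18 (95% Wilson interval 2.48% to 3.40%), 4.33% at CpG19 (3.81% to 4.91%), 0.353% at CpG20 (0.224% to 0.557%) and 1.36% at CpG21 (1.04% to 1.76%). WT cells were at 0.160% at CpG18 (0.0933% to 0.273%), 0.0982% at CpG19 (0.0498% to 0.194%), 0.0737% at CpG20 (0.0338% to 0.161%) and 0.209% at CpG21 (0.122% to 0.356%). CpG18, CpG19 and CpG21 stood higher by at least 1 point, 3 of 4, beside 48.9% of 47 CpGs. CpG20, the highest of the 4 in TDG iKO cells of the CreERT2 line, was the lowest here. Its level of 0.353% stood beside 0.340% at cytosines outside CpGs in the same amplicon and library. In WT cells these cytosines were at 0.372%, above all 4 CpGs. Each line had 1 library per genotype, so this difference between lines was not tested.

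TAPS reads 5mC and 5hmC as T, and 5fC and 5caC too through its pyridine borane step. The level is the percentage of T. BS-seq counts 5fC and 5caC with unmodified cytosine, so levels of these assays set side by side are not the same sum. Naïve cells were at 46.8% at CpG18 (95% Wilson interval 45.8% to 47.8%), 45.6% at CpG19 (44.6% to 46.6%), 35.2% at CpG20 (34.3% to 36.2%) and 18.7% at CpG21 (17.8% to 19.6%). Th2 cells were at 24% at CpG18 (23.3% to 24.7%), 14.3% at CpG19 (13.7% to 14.8%), 34.5% at CpG20 (33.7% to 35.3%) and 11.7% at CpG21 (11.1% to 12.3%). CpG18 and CpG19 were lower in Th2 cells by more than 10 points, with differences of -22.8 and -31.3 points, and CpG20 and CpG21 differed by -0.769 and -6.96 points. On the plus strand of the same libraries the differences were -4.26 points at CpG18, -12.7 points at CpG19, -3.19 points at CpG20 and -1.44 points at CpG21. On the minus strand 2 of 4 were thus lower by at least 10 points, beside 80.9% of the 47 CpGs covered, and no test was possible with 1 library per group. There CpG19 was above CpG20 in naïve cells and below it in Th2 cells, as in BS-seq, but on the plus strand of naïve cells CpG19 was at 32.8% and CpG20 at 33.6%. The promoter mean was 36.6% by TAPS and 49.6% ± 2.2 (SD, n = 3) by BS-seq in naïve cells, while CNS1 was at 92.8% and 92.7% ± 0.55 (SD, n = 3). With C reads halved as in PB-seq, the naïve TAPS levels were 63.7% at CpG18, 62.6% at CpG19, 52.1% at CpG20 and 31.5% at CpG21, beside BS-seq means of 61.2%, 55.1%, 51.5% and 30.4%. In Th2 cells they were 38.7%, 25%, 51.3% and 21%, beside BS-seq means of 52.1%, 30.0%, 49.5% and 21%. The naïve promoter mean was then 52.5% and that of CNS1 96.2%. The labels do not say which reading applies to TAPS.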

How the data were processed

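The authors mapped paired-end amplicon reads to mm9 with BSMAP, its version not given in the sources used here, and the authors deposited per-cytosine counts of C and of C plus T, not normalized. The deposited fraction of C, also per cytosine, served only to check these counts. The study's text names TAPS but reports no TAPS samples. Amplicons were placed by matching primers to converted mm9 sequence. A CpG needed 100 reads in every library compared. Runs of 1 library were averaged and their reads added. A quasi-binomial regression on C and T counts was fitted to 22 libraries of 10 groups (25 with the Gata3 set), with Williams weights and dispersions moderated with limma 3.58.1 and not below 1. Two-sided F-tests of contrasts on the log odds scale were called at 0.05 after Benjamini-Hochberg adjustment over all CpGs tested. Differences are in percentage points, and their error is the root of the summed variances of both sides, over all 4 libraries where WT cells of both lines are pooled. The test fits the lines as separate groups, so spread between lines is not in its error. The script was tested on simulated data. R 4.3.3 and Python 3.11.15 were used. All 4 promoter CpGs are named, other CpGs only as regions, apart from CpG22. Members, lists and comparisons were chosen with earlier results of these data known. Alternatives were other read minima (20 and 500), limma on log2((C + 1)/(T + 1)), separate runs, fewer groups, replicate blocks, left-out libraries, other weights of C reads and subtraction of T outside CpGs. The 6 macrophage samples were not used.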

Additional observations from a re-analysis of the deposited data

Results flagged for a closer look

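The PB-seq data also hold the partner cytosine of each CpG on the plus strand, which entered none of the comparisons above. In TDG iKO cells with CreERT2 it stood above WT cells by 2.85 points at CpG18, 3.90 points at CpG19 and 1.57 points at CpG20. With Cd4-driven Cre the differences were 6.37 points at CpG18, 2.63 points at CpG19 and 2.67 points at CpG20. At CpG21 the plus strand differed by 0.421 points with CreERT2 and by -0.119 points with Cd4-driven Cre. The strands of a CpG were unlike: with Cd4-driven Cre, CpG20 was at 2.81% on the plus strand and 0.353% on the minus strand of Tdg-deleted cells, and CpG21 was at 0.0481% and 1.36%. With 1 library per genotype these differences were not tested.

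TET and TDG deletion differed in effect, by the test of the difference itself, at all 4 promoter CpGs. The difference was 42.1, 39.8, 33.7 and 18.9 points after the first cycle at CpG18, CpG19, CpG20 and CpG21, and 40.9, 48.0, 39.9 and 23.6 points after the second. Over all CpGs tested 63.0% and 63.3% were called, and the call at CpG21 after the first cycle was lost when any of 3 single libraries was left out (adjusted p = 0.0532, 0.0731 and 0.07). No library stood far from the rest of its group in the 10 sets of 4 WT libraries examined, which cover the 4 CpGs and their mean in each cycle. Each set pools both lines, so a difference between the lines can hide a distant library. Smaller groups were not examined, among them the first-cycle wild-type set, whose replicate 3 was its highest at every promoter CpG.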

How the results depend on the processing

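Counts of called promoter CpGs were recomputed under each alternative. The naïve contrasts gave no value at a minimum of 500 reads, because naïve replicate 2 had fewer. Replicate numbers were not taken to pair samples: the labels name no animals, and over all CpGs same-numbered naïve and Th2 libraries correlated (uncentred) at 0.192, -0.0647 and 0.173 in their deviations from the group means, with 0 of 3 closest to its own number. Some pairings went the other way: same-numbered TDG iKO and WT libraries correlated at 0.459 and 0.319 in the cycles. TET WT libraries between cycles correlated at 0.160 and TET iTKO libraries at 0.136. TDG WT and TDG iKO libraries between cycles were at -0.133 and -0.0531. In these groups of 2 libraries both pairs share 1 correlation, so a count of closest pairs would only repeat its sign. A fit of the compared groups alone took the count from 2 to 1 for naïve against first-cycle Th2 cells and from 0 to 2 (CpG18 and CpG20) for first-cycle TET iTKO against naïve cells. Adding a block for the replicate number to this fit left the former at 1, returned the latter to 0 and took the count from 4 to 0 for TET iTKO against WT after the first cycle, from 3 to 0 for second-cycle TET iTKO against naïve cells, from 4 to 1 for second-cycle TDG iKO against naïve cells and from 0 to 1 for TDG iKO between cycles, and left the other counts tried as they were. Same-numbered TET iTKO and WT libraries correlated at -0.263 and -0.271 in the cycles, and with crossed pairs, chosen after seeing the data, 4 were called in each. With runs as separate replicates 1 was called for Gata3 sgRNA and 3 for naïve against first-cycle Th2 cells. Leaving out single libraries gave 1 to 3 for naïve against first-cycle Th2 cells, 0 to 1 for WT cells between cycles, 2 to 3 for second-cycle TET iTKO against naïve cells and 3 to 4 for the difference of TET and TDG effects after the first cycle. In BS-seq signs turned only at differences that were not called. Without single libraries the values ranged from -5.80 to 0.25 points at CpG20 for naïve against first-cycle Th2 cells, -2.74 to 7.24 at CpG21 for TET iTKO between cycles, -3.63 to 2.78 at CpG19 for first-cycle TET iTKO against naïve cells, -2.93 to 3.27 at CpG21 for TDG iKO against WT after the first cycle (-0.45 with separate runs), -0.782 to 1.54 at CpG20 after the second, and -2.44 to 1.28 at CpG18 and -3.89 to 2.62 at CpG19 for TDG iKO between cycles. On the plus strand, added after seeing the data, TAPS gave 1 CpG (CpG19) in place of 2, and Cd4-Cre PB-seq -0.119 points at CpG21. With C reads halved TAPS gave 3, and without halving Cd4-Cre PB-seq gave 2 in place of 3. The causes were not tested. The 109 to 117 reads of naïve replicate 2 limit its levels.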
